A study of Mus musculus with 8 samples.

Results

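The 135 genes described here encode voltage-gated sodium, calcium and potassium channels, the other potassium channels and the pacemaker channels, together with their accessory subunits. They were picked from 36406 gene names on the array by a pattern built on the family names Scn, Cacna1, Cacna2d, Cacnb, Cacng, Kcn and Hcn. All genes whose full name fits the pattern were taken, and the rule reads only names. Names with other endings, such as Kcne1l, Kcnrg and Scn2a1, fall outside it. Each gene was represented by the brightest of its probes, taken from 192 probes in all. RNA came from E14Tg2A.4 mouse embryonic stem (ES) cells, a single line of cells that renew themselves in culture, and the comparison asks how transcript levels differ between self-renewing and differentiating cells. The 4 untreated samples were ES cells with no addition, and the 4 RA samples were ES cells of the same line after 72 h of retinoic acid (RA), a derivative of vitamin A that starts differentiation. By the study's methods RA was given in a medium that lacked leukemia inhibitory factor, a cytokine that keeps ES cells self-renewing, so the effects of RA and of that medium cannot be told apart. The labels name no transgene or knockdown in either group. Each sample was bulk RNA from a culture, labelled with Cy3 and hybridized alone to an Agilent 1-colour mouse array, so that fewer cells of a type and less RNA per cell cannot be told apart.

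Ion channels of this superfamily open a pore in the membrane when the voltage changes or when a ligand binds. Sodium and calcium channels pass inward current that depolarizes the cell, potassium channels pass outward current that brings it back to rest, and the pacemaker (HCN) channels open on hyperpolarization. Calcium channels, potassium channels and sodium channels are best known from neurons, heart and muscle, but many members are also transcribed in cells that do not fire, where tandem-pore and inwardly rectifying potassium channels help set the resting potential.

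Promoter sequences were available for 98 of the 135 genes, as 133 windows of 300 bases that run from upstream of each listed start into the first bases of the transcript (RefSeq, GRCm38.p6). The windows below belong to Kcnmb4 and Kcnk5, the genes with the largest rise and the largest fall among those above background in both conditions, and to Kcnq5 and Kcnj16, which were above background on all arrays of only 1 condition. They are shown 5′ to 3′ on the coding strand, at the first start listed for each gene, with CG dinucleotides in capitals.
Kcnmb4, chr10:116473474-116473773, minus strand: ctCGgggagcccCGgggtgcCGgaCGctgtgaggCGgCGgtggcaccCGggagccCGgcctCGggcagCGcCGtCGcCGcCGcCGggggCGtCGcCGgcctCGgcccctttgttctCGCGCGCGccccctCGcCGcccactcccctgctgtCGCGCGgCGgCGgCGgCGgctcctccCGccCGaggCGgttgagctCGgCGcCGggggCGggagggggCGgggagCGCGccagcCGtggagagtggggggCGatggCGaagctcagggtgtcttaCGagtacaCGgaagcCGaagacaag
Kcnq5, chr1:21962601-21962900, minus strand: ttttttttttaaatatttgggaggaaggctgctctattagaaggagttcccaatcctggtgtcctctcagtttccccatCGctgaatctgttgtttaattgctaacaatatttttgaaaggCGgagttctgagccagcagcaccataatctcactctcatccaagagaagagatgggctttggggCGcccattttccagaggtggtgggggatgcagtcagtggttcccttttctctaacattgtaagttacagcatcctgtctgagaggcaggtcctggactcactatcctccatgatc
Kcnj16, chr11:110967783-110968082, plus strand: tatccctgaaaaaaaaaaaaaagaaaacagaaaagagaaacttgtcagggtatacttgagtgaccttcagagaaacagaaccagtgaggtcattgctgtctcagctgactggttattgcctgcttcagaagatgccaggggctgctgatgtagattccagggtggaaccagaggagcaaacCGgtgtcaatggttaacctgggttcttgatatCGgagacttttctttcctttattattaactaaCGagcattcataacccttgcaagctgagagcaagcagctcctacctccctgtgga
Kcnk5, chr14:20181733-20182032, minus strand: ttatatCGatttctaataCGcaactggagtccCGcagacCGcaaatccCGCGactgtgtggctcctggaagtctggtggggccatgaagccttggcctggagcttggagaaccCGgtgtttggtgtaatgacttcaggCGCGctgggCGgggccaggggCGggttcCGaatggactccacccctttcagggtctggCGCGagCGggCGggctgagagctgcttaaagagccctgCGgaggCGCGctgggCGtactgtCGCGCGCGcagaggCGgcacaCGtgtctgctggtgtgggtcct

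These windows held 48 CG dinucleotides for Kcnmb4, 3 for Kcnq5, 3 for Kcnj16 and 26 for Kcnk5. Kcnq5 had a second listed start with 20, and the other starts of Kcnj16 had 8, 5 and 1. The median was 11 CG over the 19 windows of genes that were higher after RA, 8 over the 39 windows of genes that were lower, 9 over the 75 windows of genes that were not called and 7 over all 32851 windows of the table. The quartiles of these groups overlapped widely, from 4 to 25 for higher genes and from 5 to 22 for lower genes. No window of a channel gene held, on either strand, 2 half-sites of a retinoic acid response element (AGGTCA or GGGTCA or AGTTCA or GGTTCA in any pairing) spaced 5 or 2 bases apart. Such pairs were found in 0.0974% and 0.268% of all windows, so their absence from 133 windows is no more than a description of these letters. TATAAA, searched on both strands, occurred in 6 of the 133 windows (4.51%), those of Kcnj13, Kcnj9, Kcnab1, Kcnj16, Cacna1d and Kcnj15, and in 13.6% of all windows.

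Levels are given as the log2 of a spot's intensity relative to the 75th percentile of its array, so that 0 marks a probe brighter than 3 in 4 of the spots and probes near -7 are in the background. Between 56.7% and 62.7% of the spots of an array exceeded background clearly and none was saturated, and replicate arrays of a condition correlated at 0.979 to 0.994. The 8 arrays came from 2 slides, each of which carried 2 untreated and 2 RA arrays. The brightest probe of 69 channel genes was well above background on all 4 untreated arrays, that of 68 genes on all 4 RA arrays, and that of 58 genes on all 8. For 38 of the 135 genes the probe was not well above background on any array. Transcripts of 5 genes passed from 0 untreated to 4 RA arrays above background, and transcripts of 7 genes from 4 to 0.

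After 72 h of RA, 19 channel genes were higher and 42 were lower at an adjusted p under 0.05 and a change above 1.5-fold (limma, Benjamini-Hochberg over 55681 probes), and 74 were not called. The share that was higher was 14.1%, close to the 13.9% of all gene names called higher by the same rule. The share that was lower was 31.1%, beside 22.1% of all gene names. The median log2 fold change of the 135 genes was -0.29, and that of all probes was -0.28, a difference of -0.01. Quantile normalization, which brings the median of all probes to -0.00257, gave 21 higher and 32 lower channel genes, beside 15.6% and 16.3% of all gene names. Normexp background correction gave 8 and 32, beside 11.4% and 17.2%. The higher genes thus made up 31.1% of the called channel genes as reported, 39.6% with quantile normalization and 20.0% with normexp. The remaining settings that moved a count by over 1.5 times were normexp with quantile normalization (9 higher and 23 lower, beside 12.9% and 13.2% of all gene names), the authors' log2 values (9 and 23, beside 12.8% and 13.1%) and limma's treat against 1.5-fold (9 and 24, beside 8.33% and 10.5%). Among the genes named below, apart from those whose lost calls are given beside them, normexp with quantile normalization and the authors' values each ended the calls of Cacnb4, Cacng5, Cacng6, Cacng8, Cacna1f, Cacna1i, Kcnh4, Kcnh8, Kcnip1, Kcnab3, Kcna5, Kcnc2, Kcnt1, Kcns3, Kcng4, Kcnv2, Kcnk15 and Kcnk16. Arrays of the conditions did not overlap for 16 of the 19 higher and 39 of the 42 lower genes. Calls favour genes without overlap, and the share over all gene names was not counted. All 61 called channel genes changed in the same direction on each of the 2 slides taken alone. Where arrays did not overlap this could not be otherwise, and the rest were called over the same arrays. 

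**Figure D1:**
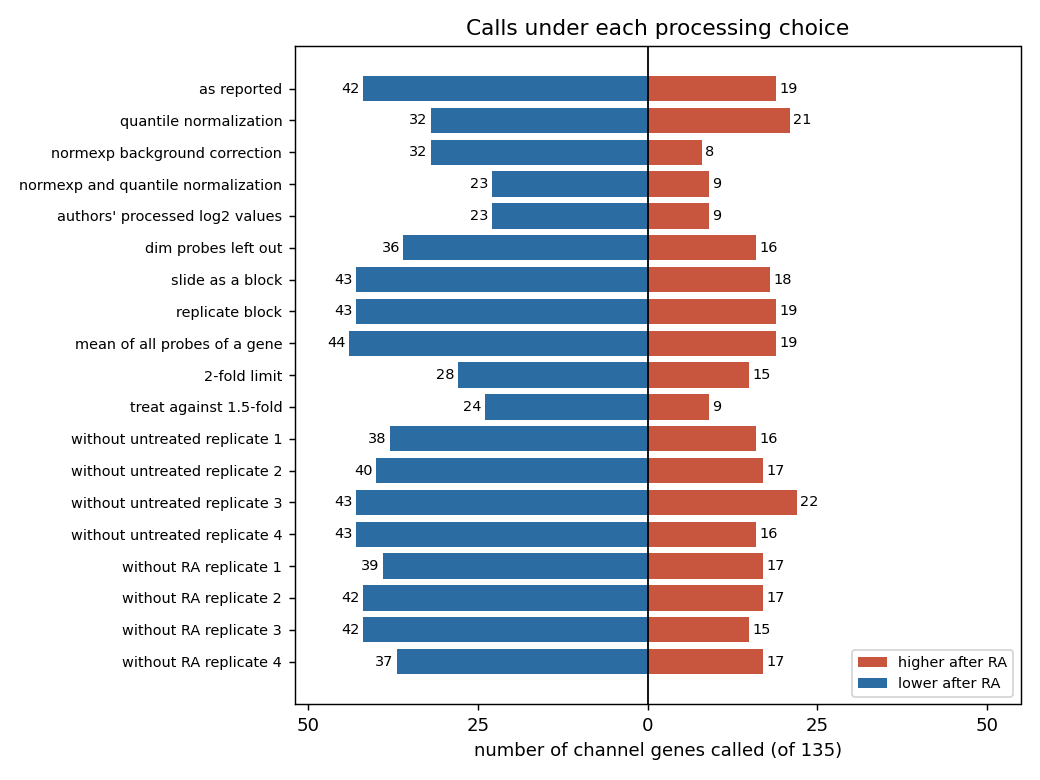
Number of the 135 channel genes called higher (red, to the right) and lower (blue, to the left) after RA, as reported and under each alternative way of processing (y axis), with the counts at the bars. Lower genes outnumber higher genes in every bar, from 42 against 19 as reported to 23 against 9 with the authors' log2 values.

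A level could be given in both conditions for 11 of the higher and 28 of the lower genes. Their sizes ran from 0.85 to 5.42 on the log2 scale among the higher and from 0.64 to 2.91 among the lower genes. Another 7 and 11 were well above background in only 1 condition, and for these the fold is given as "at least", against the lowest signal that was well above background on each array. Measured or as such a bound, the change was beyond 4-fold for 3 higher and 9 lower genes. The remaining 4 were Kcnip1 among the higher genes, which was not well above background on any array, and Cacnb4, Cacna1f and Cacng5 among the lower, for which no fold can be given. By role, 13 of 100 genes for pore-forming subunits were higher and 32 lower, against 6 and 10 of 35 genes for accessory subunits. These counts and those of the families that follow stand beside 13.9% higher and 22.1% lower of all gene names.

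**Figure D2:**
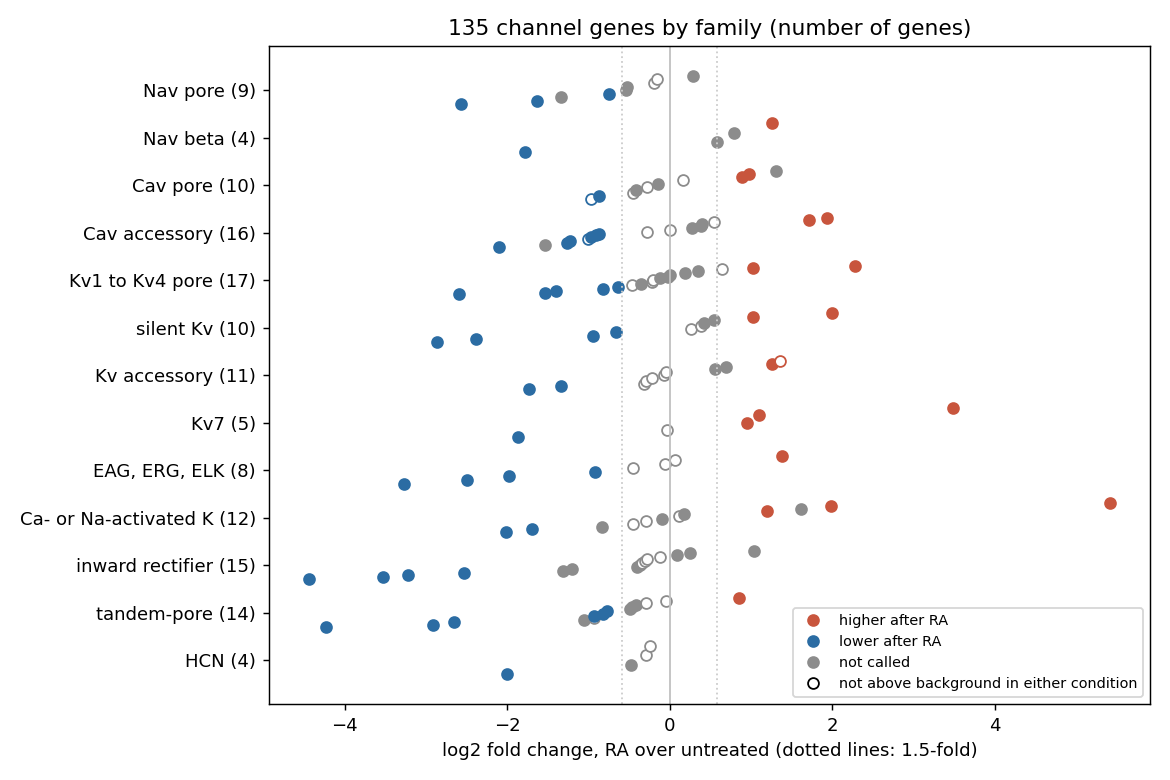
Log2 fold change of each of the 135 channel genes (x axis, RA over untreated, dotted lines at 1.5-fold) by family (y axis, number of genes in parentheses), with genes called higher in red, genes called lower in blue, genes not called in grey and genes not above background in either condition as open circles. Kcnmb4 lies alone at 5.42 on the right, and the genes with fitted values beyond -3, all in the background after RA, are 3 inward rectifiers, 1 tandem-pore gene and 1 gene of the EAG, ERG and ELK family.

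The pore-forming sodium channel subunits carry the rising phase of the action potential. Of 9 genes 3 were lower and none was higher, and 1 was lower with normexp plus quantile normalization, with the authors' values or with treat. Scn3a, the sodium channel of embryonic brain, had levels of -2.32, -1.81, -2.19 and -2.68 in the untreated arrays and -4.51, -3.77, -5.14 and -5.83 in the RA arrays. All RA arrays lay below all untreated arrays, with a log2 fold change of -2.56 ± 0.41 (SE, n = 4 per condition, limma adjusted p = 0.00118). Its second probe gave -2.48, with 2 RA arrays above background. Scn1a, a sodium channel of inhibitory neurons, fell by 1.63 (adjusted p = 0.0194) and was well above background on only 2 of the 4 RA arrays. This call was lost with quantile normalization, with or without normexp, and with the authors' values, at -1.34 to -0.52. A second probe of Scn1a, above background on 3 arrays of each condition, gave -0.58 ± 0.17 (adjusted p = 0.0257). This was under 1.5-fold and not called. Scn7a and Scn9a were not well above background on any array. Scn8a, which carries current at the axon initial segment and nodes, was among the 6 strongest channel signals in both conditions, which does not rank transcripts, since probes differ in efficiency. Its levels of 2.23, 2.28, 2.56 and 2.89 untreated and 2.77, 2.70, 2.48 and 3.14 after RA overlapped (log2 fold change 0.28 ± 0.21, adjusted p = 0.280), but its other probes disagreed, as described with the probe sequences.

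The beta subunits sit beside the sodium channel pore and shape its gating and adhesion. Scn2b, Scn3b and Scn4b were well above background on all 8 arrays. Scn2b rose from -2.31, -1.58, -2.73 and -2.62 to -1.42, -1.39, -0.82 and -0.59, and the lowest RA array was above the highest untreated array (log2 fold change 1.25 ± 0.30, adjusted p = 0.00968). Scn3b, a beta subunit of developing neurons, went the other way, from 1.96, 0.40, 1.06 and 0.13 to -0.57, -0.89, -1.22 and -0.87 (log2 fold change -1.78 ± 0.37, adjusted p = 0.00531). Scn4b, which lies next to Scn2b in the genome, had a log2 fold change of 0.80 ± 0.43 and was not called (adjusted p = 0.182), but it was called higher when untreated array 3 was left out.

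Among the 10 calcium channel pore genes, 2 were higher and 2 lower. Leaving out 1 array gave 1 to 3 higher and 1 to 4 lower, with the most without untreated array 3, where Cacna1a and Cacna1b were also called lower, and quantile normalization left none lower. The pair that was higher encodes T-type channels, which open at low voltage. Cacna1h was at -2.78, -2.91, -3.16 and -3.31 untreated and -1.76, -2.35, -2.24 and -1.91 after RA, with no overlap (log2 fold change 0.98 ± 0.19, adjusted p = 0.00360). A second, dimmer probe gave -0.42 ± 0.29 (adjusted p = 0.246), and with the mean of both probes the call was lost, at 0.28. Cacna1g was at -4.13, -3.25, -2.91 and -3.18 and -2.61, -1.97, -2.35 and -2.97, where the lowest RA array lay within the untreated range (log2 fold change 0.89 ± 0.30, adjusted p = 0.0460). This call was lost when 1 of 6 arrays was left out (untreated 1, 2 or 4, or RA 1, 2 or 3), with log2 fold changes of 0.64 to 0.95 (adjusted p from 0.0666 to 0.109), and with normexp, at 0.49. Cacna1i, the remaining T-type gene, was lower (-0.87 ± 0.29, adjusted p = 0.0451), with 1 RA array inside the untreated range. The call of Cacna1i held in 5 of 18 alternative analyses and was lost in 13, among them the replicate block. The other lower gene was Cacna1f, a retinal L-type gene whose probe was not well above background on any array. Cacna1c, the L-type channel of heart and smooth muscle, was not well above background on any array.

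Cacna1s, the calcium channel of skeletal muscle, was scattered among the untreated arrays. The untreated arrays gave -0.34, 1.73, 2.55 and -0.01 and the RA arrays 2.50, 2.40, 2.45 and 1.80. Untreated arrays 1 and 4 lay well below every RA array, whereas untreated array 3 lay above every RA array, and the change of 1.31 ± 0.60 was not called (adjusted p = 0.122). A second probe of the gene had the same order of untreated arrays, with -3.80, -1.26, -0.35 and -2.68. Without untreated array 3 the change was called, at a log2 fold change of 1.83 (adjusted p = 0.0196).

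The accessory subunits of calcium channels traffic the pore to the membrane and set its gating. Of 16 such genes 2 were higher and 7 lower, against 0 and 4 with normexp. Cacna2d3, an alpha2delta subunit, rose from -6.46, -6.57, -6.16 and -7.19, all in the background, to -4.35, -5.05, -4.44 and -4.82, all well above it, a change of at least 1.98-fold (adjusted p = 3.87e-04). Cacnb2, the beta subunit best known from heart, did the same, from -6.16, -7.84, -6.03 and -5.94 to -4.81, -5.27, -4.71 and -4.33, at least 1.82-fold (adjusted p = 0.0118). Both calls were lost with normexp, alone or with quantile normalization, and with the authors' values, at log2 fold changes of 0.25 to 0.48 for Cacna2d3 and 0.22 to 0.45 for Cacnb2. The lower genes were Cacna2d2, Cacnb1, Cacnb4 and the gamma subunit genes Cacng5, Cacng6, Cacng7 and Cacng8. Cacng7, whose product also regulates AMPA-type glutamate receptors, was also among these strong signals, at 2.74, 3.00, 2.34 and 2.95 untreated and 1.34, 1.82, 2.13 and 1.87 after RA (log2 fold change -0.97 ± 0.22, adjusted p = 0.00758). Every RA array lay below every untreated array. Its relative Cacng8 fell by at least 1.95-fold and Cacng6 by 0.91 on the log2 scale. Cacnb3, a bright beta subunit gene, was at 1.08 to 1.57 untreated and 1.51 to 2.15 after RA and was not called (0.38 ± 0.19, adjusted p = 0.151).

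The Kv1 to Kv4 genes encode the classical voltage-gated potassium channels, which end the action potential. Of 17 genes 2 were higher and 5 lower, against 3 lower with quantile normalization, where Kcnc2 and Kcna7 lost their calls, and 1 higher and 2 lower with normexp. Kcnc1, which encodes a Kv3 channel of fast-spiking neurons, had levels of -5.21, -5.55, -5.14 and -5.36 untreated, where only 1 array was well above background, and -3.20, -2.90, -3.21 and -2.83 after RA, where all were. The groups were far apart, and the fold change was 4.85 (log2 2.28 ± 0.16, adjusted p = 1.50e-05). It rests on 1 probe, since the other probes of Kcnc1 were not well above background on any array. Kcnc2, a paralogue of Kcnc1 and also a Kv3 gene, was lower by at least 1.96-fold, and well above background on 1 untreated array only. Kcna1, a Kv1 channel of axons, was higher by at least 1.40-fold, with 2 RA arrays above background and 1 of the others inside the untreated range (adjusted p = 0.0453). Leaving out 1 of 6 arrays (untreated 1, 2 or 4, or RA 2, 3 or 4) ended this call, with log2 fold changes of 0.82 to 1.11 (adjusted p from 0.0582 to 0.114), and so did slide as a block, normexp with or without quantile normalization, and the authors' values, at 0.04 to 1.02. Kcna4, an A-type channel gene with a strong signal, was at 2.17 to 3.14 and 2.29 to 2.85 (log2 fold change -0.12 ± 0.23, adjusted p = 0.685).

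The silent subunits form no channel alone and join Kv2 subunits to change their currents. Of their 10 genes 2 were higher and 4 lower, against 3 and 2 with quantile normalization and 0 and 2 with normexp. Kcnf1 went from background in all untreated arrays (-7.33, -5.88, -5.97 and -6.80) to above it in all RA arrays (-4.79, -4.36, -4.44 and -4.41), at least 2.00-fold (adjusted p = 0.00120). Kcns1 rose by 1.02 ± 0.32 (adjusted p = 0.0323), a call lost when 1 of 5 arrays was left out (untreated 1 or 2, or RA 1, 3 or 4), with log2 fold changes of 0.75 to 1.06 (adjusted p from 0.0568 to 0.0840). The calls of Kcnf1 and Kcns1 were also lost with normexp, alone or with quantile normalization, and with the authors' values, at 0.31 to 0.54 and 0.34 to 0.57. Kcns2 fell out of the measurable range, from -3.85, -5.00, -3.63 and -4.24 to -7.68, -5.91, -7.77 and -6.79, at least 3.44-fold (adjusted p = 0.00115), a call lost with normexp plus quantile normalization and with the authors' values, at -0.56 to -0.55. Kcnv2, Kcng4 and Kcns3 were the other lower genes, with Kcnv2 lower by at least 2.55-fold.

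Kv accessory subunits, which bind the channel inside or within the membrane, had 2 higher and 2 lower of 11 genes, and 1 of each with the authors' values. Kcnip3, a calcium sensor that binds Kv4 channels and also acts as a transcriptional repressor, rose from -0.24, 0.64, 0.12 and 0.28 to 1.19, 1.49, 1.60 and 1.53 (log2 fold change 1.25 ± 0.21, adjusted p = 0.00134). Every RA array was above every untreated array. A second probe of Kcnip3, also above background on all 8 arrays, gave 0.40 ± 0.24 and was not called (adjusted p = 0.211). Kcnip2, a relative that is essential for the transient outward current of heart, fell by 1.73, and Kcnab3, a cytoplasmic beta subunit, fell by 1.34 on the log2 scale. Kcnip1 passed the test with all of its values, -7.57 to -7.24 and -6.36 to -5.70, in the background.

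Kv7 channels carry the M-current, which damps repetitive firing, and a slow repolarizing current in heart. Of their 5 genes 3 were higher and 1 was lower, the highest share of higher genes among the families. Kcnq5, a subunit of the neuronal M-current, was at -6.83, -7.64, -5.96 and -6.90 untreated, all in the background, and at -2.96, -4.10, -3.57 and -2.75 after RA, all above it. This is a rise of at least 4.92-fold (adjusted p = 1.81e-04). It rests on 1 probe, since the other probe of Kcnq5 was not well above background on any array. Kcnq1, which forms the slow cardiac and epithelial current, rose from -5.62, -5.62, -5.51 and -5.36, with 1 array above background, to -4.67, -4.89, -4.62 and -4.12 (log2 fold change 0.96 ± 0.19, adjusted p = 0.00340), a call lost with normexp, alone or with quantile normalization, and with the authors' values, at 0.13 to 0.36. Kcnq3, another M-current gene, was not above background on any array.

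The EAG, ERG and ELK channels had 1 higher and 4 lower of 8 genes, and 2 lower with the authors' values. Kcnh2, whose ERG channel repolarizes the heart, rose from -3.15, -2.53, -3.89 and -2.82 to -2.03, -1.78, -1.42 and -1.65 without overlap (log2 fold change 1.38 ± 0.29, adjusted p = 0.00517). The related ERG gene Kcnh6 changed in the opposite direction, from -4.99, -4.32, -4.54 and -4.05 to -7.78, -7.54, -7.87 and -7.78, lower by at least 2.84-fold (adjusted p = 1.02e-05). The remaining ERG gene, Kcnh7, was not above background on any array. All 3 ELK genes, which encode slowly gating brain channels, were lower. Kcnh3 fell from 0.58, 1.18, -0.07 and 0.74 to -2.27, -1.30, -2.07 and -1.92 (5.64-fold, adjusted p = 2.33e-04), Kcnh8 by 1.98, with 2 RA arrays above background, and Kcnh4 by 0.92 on the log2 scale.

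Calcium- and sodium-activated potassium channels link the membrane potential to ion levels inside the cell. Of their 12 genes 3 were higher and 2 lower, and 1 was higher with normexp. Kcnmb4, the beta subunit that makes large-conductance (BK) channels of brain slow and less sensitive to toxin, had the largest fitted log2 fold change of the 135 genes in either direction. Its levels were -4.73, -3.07, -4.27 and -3.98 in the untreated arrays and 1.39, 0.66, 1.61 and 1.98 in the RA arrays. All arrays were well above background, and the RA arrays lay on average 42.8-fold higher (log2 5.42 ± 0.39, adjusted p = 1.59e-05). Kcnma1, which encodes the BK pore that Kcnmb4 joins, was at -5.36, -5.25, -4.75 and -6.19 untreated and -5.84, -5.47, -4.63 and -4.89 after RA, with 2 arrays of each condition above background, and was not called (0.18 ± 0.36, adjusted p = 0.70). The sign of its value turned under several of the alternative analyses.

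Kcnn3 and Kcnn2 encode small-conductance channels that produce the afterhyperpolarization of neurons, and they changed in opposite directions. Kcnn3 rose from -7.44, -7.87, -5.68 and -7.45, none above background, to -4.95, -5.31, -5.18 and -5.05, all above it, at least 1.43-fold (adjusted p = 0.00575). The same settings that ended the call of Kcnq1 ended that of Kcnn3, at 0.19 to 0.43. Kcnn2 fell from 0.43, 0.60, 0.05 and 0.25 to -1.50, -1.66, -1.35 and -2.20 (log2 fold change -2.01 ± 0.22, adjusted p = 1.28e-04). Kcnt1, a sodium-activated channel, was higher by at least 1.18-fold with overlapping arrays, and Kcnu1, a channel of sperm, fell by 1.70. Kcnmb1, the smooth muscle beta subunit, was in the background on all untreated arrays and split after RA, at -3.95, -4.58, -7.28 and -7.92, and it was not called (adjusted p = 0.160), except when RA array 4 was left out.

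Inwardly rectifying channels hold the resting potential and clear potassium. None of the 15 genes was higher and 4 were lower, a share near the 22.1% of all gene names. Kcnj16 encodes a subunit that has to join the product of Kcnj10 to make a channel of kidney and glia. Kcnj16 was at -2.90, -3.70, -4.01 and -3.18 in the untreated arrays and at -7.90, -7.75, -7.99 and -7.92 in the RA arrays, which lay in the background, a fall of at least 5.78-fold (adjusted p = 4.96e-06). Kcnj10 fell from -0.11, 0.15, 0.12 and -0.36 to -3.07, -2.39, -2.07 and -2.79 and stayed measurable (5.77-fold, adjusted p = 6.18e-05). For both genes every RA array lay far below every untreated array.

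Kcnj3 and Kcnj9 encode subunits of the G protein-gated channels through which transmitters slow the heart and silence neurons. Kcnj3 fell from -4.22, -4.22, -4.52 and -3.44 to -7.54, -7.24, -7.92 and -7.80, at least 3.68-fold (adjusted p = 1.74e-05), and Kcnj9 from -3.93, -3.53, -4.14 and -4.67 to -7.76, -7.32, -6.29 and -7.76, at least 3.77-fold (adjusted p = 1.76e-04). None of the RA arrays was above background for either gene. The other members of this group, Kcnj5 and Kcnj6, were not called, and Kcnj6 was not above background on any array. Kcnj2, the strong rectifier of heart and muscle, was not above background on any array, at -7.56 to -7.11 untreated and -7.75 to -7.46 after RA.

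Tandem-pore channels carry the background leak of potassium. Of 14 genes 1 was higher and 6 were lower, and none was higher with normexp. Kcnk5, an alkaline-activated leak channel of epithelia, was among the 6 strongest signals in untreated cells, at 1.23, 1.76, 1.24 and 1.71, and lay at -1.49, -1.03, -1.43 and -1.75 after RA. All 8 arrays were well above background, and the fall was 7.52-fold (log2 -2.91 ± 0.21, adjusted p = 1.57e-05). Kcnk7, a member for which no current has been found when it is made alone, fell from -2.61, -2.94, -3.93 and -2.49 to -6.95, -6.15, -7.76 and -8.02, at least 7.94-fold (adjusted p = 1.33e-04). Kcnk12, a member of the halothane-inhibited group, fell from -3.91, -3.10, -2.93 and -2.83 to -5.47, -5.71, -5.98 and -6.22, at least 6.02-fold (adjusted p = 9.53e-05). Kcnk4, Kcnk6 and Kcnk15 were the other lower genes, and Kcnk16, known from pancreas, rose by 0.85 ± 0.18 from -4.38 to -3.84 to -3.60 to -3.01. The widely expressed Kcnk1 was bright in both conditions and not called (-0.46 ± 0.26, adjusted p = 0.199), and the acid-sensitive Kcnk9 was at -4.18 to -3.72 and -4.72 to -4.06 (adjusted p = 0.0745), and it was called when RA array 3 was left out, at a log2 fold change of -0.61 (adjusted p = 0.0343).

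The HCN genes encode the pacemaker channels of heart and brain. Hcn2 had a strong signal in untreated cells, at 3.28, 3.41, 3.44 and 3.58, and was at 2.80, 3.12, 2.72 and 3.14 after RA. The arrays did not overlap and the adjusted p was 0.0387, but the change of -0.48 ± 0.16 was smaller than 1.5-fold and was not called. A second, dimmer probe of Hcn2 gave -1.29 ± 0.17 (adjusted p = 4.60e-04), and the mean of both probes was called lower, at -0.89. Hcn3 fell from -1.90, -1.41, -2.29 and -1.90 to -4.11, -3.66, -3.78 and -3.92 (log2 fold change -2.00 ± 0.21, adjusted p = 1.02e-04). Hcn4, the main gene of the sinus node, was not above background on any array.

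**Figure D3:**
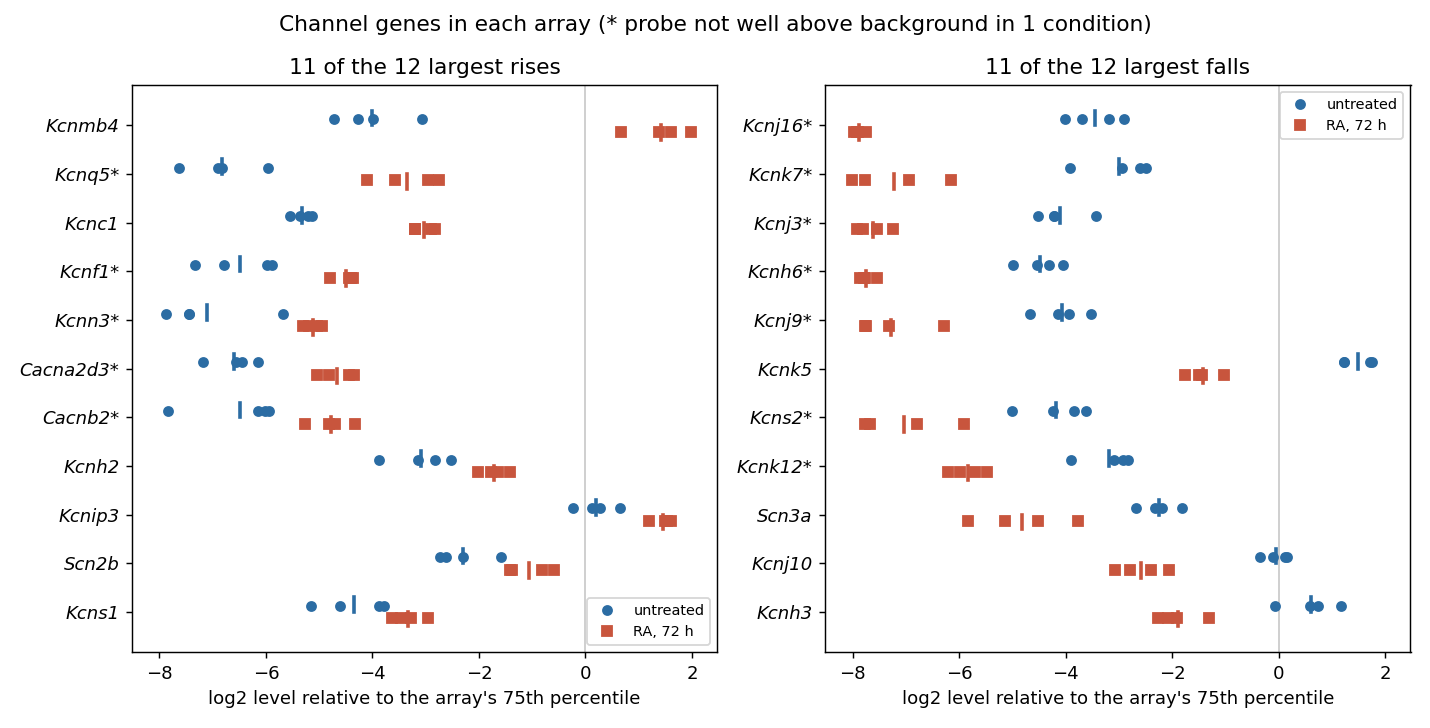
Log2 level of each array relative to its 75th percentile (x axis) for 11 of the 12 channel genes with the largest fitted rise and 11 of the 12 with the largest fitted fall among called genes whose arrays did not overlap (y axis), with untreated arrays as blue circles, RA arrays as red squares and vertical bars at the means. Kcnmb4 passes from -4.73 to -3.07 in untreated arrays to between 0.66 and 1.98 after RA, and 7 of the 11 falls end in the background.

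Each probe reads 60 bases, and a gene can look different through different probes. Of the 47 channel genes with several probes, 28 had more than 1 probe above background in some array. In 1 of them, Kcna5, probes were called in opposite directions, and in 5, Cacna1d, Hcn2, Kcna6, Kcnj13 and Scn8a, the brightest probe was not called but another was. These genes were picked out after their values had been seen. The start of probes is shown for Kcna6, Kcna5, Kcnmb4 and Scn8a, as the first 30 of 60 bases, with positions on mm9 as the scanner output gives them. The probes of Kcnk4, which differed more in log2 fold change than those of Scn8a, are described below but not shown. Capitals mark bases that also end the promoter window of Kcnmb4 shown above.
Kcna6 probe 1, chr6:126686702-126686761: tgtcatggtccctctttgtgcctcagttcc
Kcna6 probe 2, chr6:126658424-126658483: gagagttgctggtctgatcaaaggagagga
Kcna5 probe 1, chr6:126483373-126483432: gacctgcgaaggtctctgtatgccctctgt
Kcna5 probe 2, chr6:126482573-126482632: ggcttttgagaattcattcttttcattttg
Kcnmb4 probe 1, chr10:115854977-115855036: ccctcaaagaagtcggttttctttggaaag
Kcnmb4 probe 2, chr10:115910498-115910557: TTACGAGTACACGGAAGCCGAAGACAAGag
Scn8a probe 1, chr15:100875702-100875761: gcaggtgtgcacatgtatgtgtgtgtgtgt
Scn8a probe 2, chr15:100766904-100766963: acagcaagcccaagccaaacagtgacctgg

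For Kcna6, a Kv1 gene, probe 1 gave -1.94, -2.43, -2.11 and -2.70 untreated and -2.34, -2.20, -2.69 and -1.96 after RA, a change of 0.00 ± 0.22. Probe 2 gave -4.87, -4.30, -2.18 and -5.32 and -1.09, -0.90, -1.04 and -0.99, a rise of 3.16 ± 0.59 (adjusted p = 0.00272) with 2 untreated arrays above background. By probe 2 untreated array 3 lay well above the other untreated arrays, and the 4 RA arrays were close together. For Kcna5, a Kv1 gene of heart and vessels, probe 1 gave -0.83 ± 0.22 and probe 2 was higher by at least 1.37-fold (adjusted p = 7.39e-05), from values in the background to 3 RA arrays above it. With the mean of the probes of Kcna5 the gene was called higher.

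Both probes of Kcnmb4 rose. Probe 1, at the far end of the gene, changed by 5.42 ± 0.39. Probe 2, whose first 28 bases are the last 28 of the promoter window and so lie at the start of the transcript, changed by 2.51 ± 0.24 (adjusted p = 7.40e-05), from -4.76, -4.02, -4.17 and -4.0 to -1.65, -2.20, -1.77 and -1.29. For Scn8a, probe 1, whose printed bases end in a run of 13 alternating t and g, gave 0.28 ± 0.21. Probe 2 fell from -2.78, -2.44, -2.27 and -1.94 to -3.85, -3.33, -3.14 and -3.59 (-1.12 ± 0.23, adjusted p = 0.00437), and probe 3, above background on 1 untreated array only, was lower by at least 1.37-fold (adjusted p = 0.00517). The mean of the 3 probes was lower by 0.93 (adjusted p = 0.0111). Kcnk4, a mechanosensitive tandem-pore gene, was lower by both probes, but by 0.77 with one and by at least 6.15-fold with the other. What makes probes of a gene differ was not tested.

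**Figure D4:**
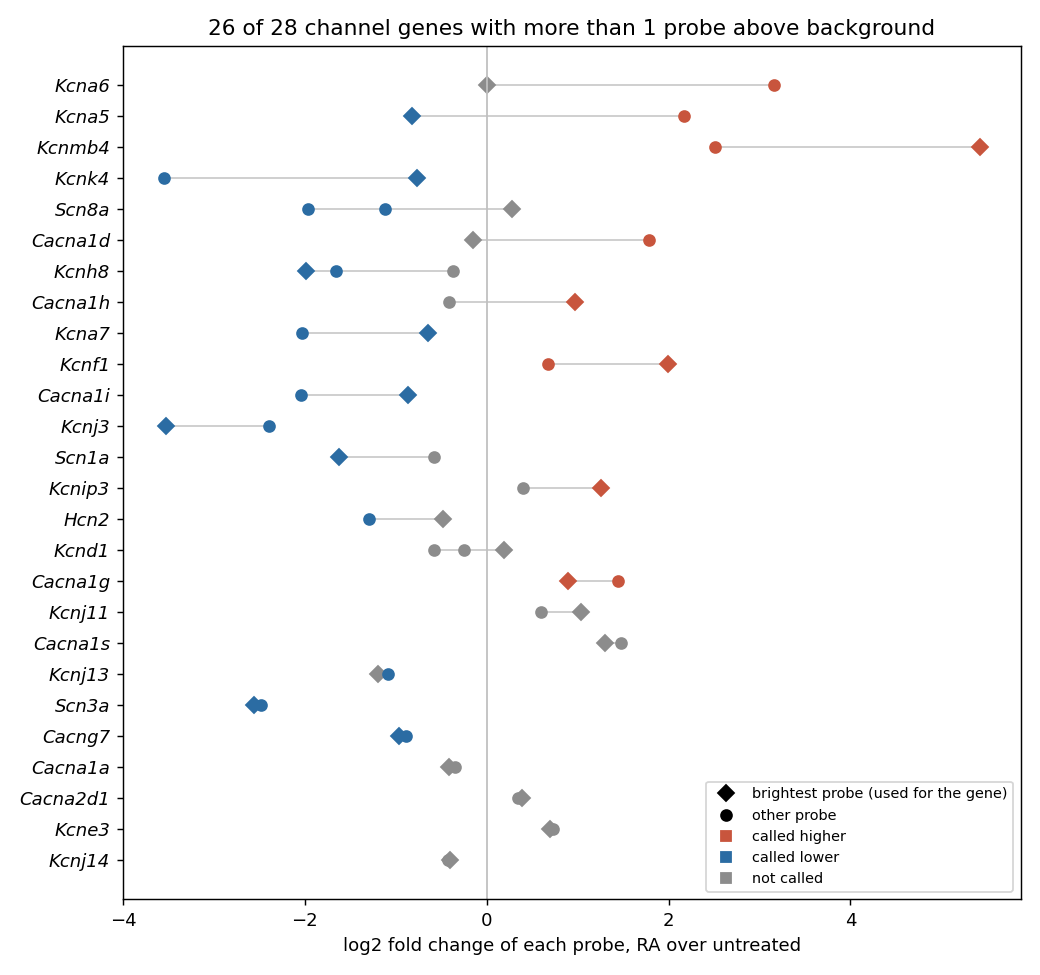
Log2 fold change (x axis, RA over untreated) of every probe above background in some array for 26 of the 28 channel genes with more than 1 such probe (y axis), with the brightest probe of a gene as a diamond, its other probes as circles, and calls in red (higher), blue (lower) and grey (not called). The genes at the top have the widest span, led by Kcna6 with probes at 0.00 and 3.16, and the genes at the bottom have probes that nearly coincide.

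Of the 135 genes, 32 lay next to another channel gene in the order of protein-coding genes (RefSeq, GRCm38.p6), in 19 neighbouring pairs. In 3 pairs both genes were lower, in 2 the genes were called in opposite directions, in 7 only 1 was called and in 7 neither was. The pairs lower together were Kcnj9 with Kcnj10, and the chain of Cacng7, Cacng8 and Cacng6, which makes up the other 2. Kcnk5 fell by 2.91 and its neighbour Kcnk16 rose by 0.85. Kcna5 and its neighbour Kcna1 were the other opposite pair, with the limits given above for both. Kcnj16 lies beside Kcnj2, which was in the background in both conditions.

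A separate list of 39 genes, which holds proteins that act on these channels, further channels named outside the pattern and the repressor Rest, had 11 higher, 7 lower and 21 not called, beside 13.9% higher and 22.1% lower of all gene names. Stac, an adaptor that binds L-type calcium channels, rose from -5.79, -7.57, -7.71 and -6.55, all in the background, to -0.23, -0.48, -1.28 and -0.69, at least 31.5-fold (adjusted p = 1.40e-05). Stac3, the adaptor of skeletal muscle, rose by 1.91 ± 0.27 and Stac2, the remaining gene of the group, fell by 3.13, from -2.11 to -1.39 to -5.18 to -4.46 (adjusted p = 1.28e-05). Fgf12, an intracellular factor that binds sodium channels, rose by at least 2.55-fold, a call lost with normexp (0.50), and Kcne1l, a single-pass potassium channel subunit named outside the pattern of the 135, rose by 2.62 ± 0.51. Gem, a small GTPase that inhibits calcium channels, rose by 1.87 ± 0.23. Kcnrg, whose product hinders assembly of Kv channels, fell by 2.65 with only 1 RA array above background, and Abcc9, the sulfonylurea receptor subunit of muscle, was lower by at least 1.81-fold. Without untreated array 1 the change of Abcc9 was not called, at a log2 fold change of -1.93 (adjusted p = 0.0500), nor was it with quantile normalization, with or without normexp, or the authors' values, at -1.91 to -0.34. Lgi1, a secreted protein that acts on Kv1 channels, passed the test with no array above background. Rest, the repressor that binds many neuronal genes and channel genes, fell from 5.18, 4.99, 5.01 and 5.47 to 3.1, 3.26, 3.27 and 3.06 (3.98-fold, adjusted p = 2.41e-05). Scn2a1, a sodium channel gene that the array names outside the pattern, was not called (0.12 ± 0.18, adjusted p = 0.619).

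Marker genes of cell types moved between the conditions as well. Pou5f1, which defines ES cells, was at 5.29 to 6.0 in the untreated and -1.16 to 2.05 in the RA arrays. All 9 ES cell markers were lower, with a median log2 fold change of -5.17, and the log2 of the intensity summed over the list went from between 8.14 and 8.58 to between 3.40 and 5.11. All 11 markers of extraembryonic endoderm and 5 of 8 markers of muscle and heart were higher, the former from a summed level of 6.66 to 7.21 up to 8.13 to 8.34 and the latter from 2.37 to 2.76 up to 7.90 to 8.82. Of 11 neuronal markers on the array 3 were higher and 6 lower, with summed levels of 4.33 to 5.04 and 3.40 to 4.56. The neural progenitor list had 1 higher and 1 lower of 6, from 1.17 to 1.85 up to 3.14 to 3.39, and the glial list 1 higher of 4, from 1.02 to 1.47 up to 2.15 to 2.63. Ttr, Dcx and Neurog2 were in the background on all untreated arrays, no listed marker was so in both conditions, and the part of these cell types in the channel values was not tested.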

How the data were processed

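Gene expression was measured on 8 Agilent 1-colour arrays, 4 of untreated and 4 of RA-treated E14Tg2A.4 cells, with condition and replicate number taken from the sample labels. The channel genes, gene lists and tests were chosen with earlier results of these data known. The authors deposited Feature Extraction (version 10.7.3.1, mm9) output, which holds for each spot the processed intensity, corrected for background and detrended but not normalized between arrays, the raw spot and background intensity, and flags of 0 or 1 (other values) for spots well above background or outlying. They also deposited log2 values of the same arrays, identical in distribution across arrays, whose processing is not given in the sources used here.

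In R (version 4.3.3), log2 of the processed intensity minus the 75th percentile over the non-control spots of each array was taken. Control spots (3671) and outlying spots (124 to 145 an array) were dropped, and repeated spots of 1 probe were averaged, without a filter on dim probes. A probe was counted as well above background on an array where at least as many of its spots had the flag as lacked it. RA was tested against untreated in limma (version 3.58.1) with lmFit and eBayes, and p-values were adjusted with the Benjamini-Hochberg method over 55681 probes. Genes were called at an adjusted p under 0.05 and above 1.5-fold, the limits of the study. With arrays, their number sets the precision. The labels call the samples of a condition replicates, and the study calls them biological replicates.

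Genes named in the text were the 12 largest rises and falls among called genes with no overlap between the arrays of the conditions and at least 3 arrays of the brighter condition above background, the 6 with the highest level in each condition, 20 genes chosen for their known roles, and at most 5 called partner genes in each direction with Rest. Some channel genes are counted here but not reported by name. Further genes were named with their values in view. Symbols follow the array's own design. Same-numbered arrays of the conditions deviated together weakly (r = 0.186, 0.189, 0.104 and 0.151 over 27493 probes). The labels number the replicates of each condition and state no pairing. Some arrays of different number also deviated together, untreated 1 with RA 4 (0.142) and untreated 4 with RA 3 (0.130). These values cannot settle whether equal numbers mark paired cultures. The main test uses no pairing, and the replicate block is an alternative.

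Alternatives were quantile normalization, normexp background correction with an offset of 50, both together, the authors' log2 values, leaving out dim probes, slide or replicate number as a block, the mean of a gene's probes, a 2-fold limit, limma's treat, and leaving out each array. On simulated data for RA against untreated, 141 of 200 probes changed by a log2 value of 2 were recovered among 55681 probes, and 5 unchanged probes were called.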

Additional observations from a re-analysis of the deposited data

Results flagged for a closer look

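Among 86 groups of 4 arrays of named channel and partner genes (71 and 15 groups) with some array above background, 1 held an array outside Dixon's limit, and chance gives about 4.3. The level of Cacna1s in RA array 4 was 1.80, against 2.40 to 2.50 in the other RA arrays.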

How the results depend on the processing

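Fewer channel genes were called higher with normexp (8), with normexp plus quantile normalization (9), with the authors' log2 values (9) and with treat (9), and fewer lower with normexp and quantile normalization (23), the authors' values (23) and treat (24). Of the partner genes, 4 were lower with quantile normalization, 4 with normexp, 3 with both, 3 with the authors' values and 4 with treat, and 7 were higher with normexp and with treat. The number above background on at least 1 array was 87 untreated and 81 after RA. Leaving out 1 array gave 15 to 22 higher and 37 to 43 lower channel genes, and 10 to 12 higher and 5 to 8 lower partner genes. Calls held in each of these for 15 of 19 higher genes, all but Cacna1g, Kcna1, Kcns1 and Kcnt1, and for 35 of 42 lower genes, all but Cacna1i, Cacng5, Kcna5, Kcna7, Kcnk15, Kcnk6 and Kcns3. In all 18 alternatives 4 higher genes (Kcnmb4, Kcnq5, Kcnc1 and Kcnip3) and 17 lower genes remained called. The replicate block, which treats arrays of equal number as pairs, gave 19 higher and 43 lower. It kept 59 of the 61 calls, all but those of Cacna1i and Kcns3. The slide block gave 18 and 43. Kcna5, called lower, was called higher with the mean of its probes. Of the genes named by rule, those with a value whose sign turned were not called as reported: Kcnma1 (-0.13 with normexp, -0.00997 with the mean of its probes and from -0.090 to 0.39 with 1 array left out), Kcna4 (from -0.27 to 0.056 with 1 array left out) and Scn8a (-0.93 with the mean of its probes, called lower there, adjusted p = 0.0111). Leaving aside the 2-fold limit and treat, which change the limit and ended further calls, of 813 values of 51 named genes under the alternatives 748 kept their direction and call, 56 lost and 3 gained a call and 6 turned sign. The causes were not tested. Signal over background limits what can be seen: the probes of 38 genes were not well above background on any array.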
